A study of Danio rerio with 2 samples.

Results

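The levels of 5 genes for retinoid handling and response were followed across cell classes of the zebrafish embryo. They are rbp4l (ENSDARG00000044684), RDH8 (ENSDARG00000028048), DHRS3 (ENSDARG00000044803), CRABP2 (ENSDARG00000073978) and RXRA (ENSDARG00000057737), which makes 5 of the 18723 genes of the deposited filtered table. They were named in advance by gene ID because their levels were already known to differ between cell classes or libraries. Their levels by class and library are therefore given as a description. Apart from rbp4l, each symbol is a human-style name shared by more than 1 zebrafish gene, so the paralogue letter is left out and the ID is what identifies the row.

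Vitamin A travels as retinol bound to carrier proteins, is oxidised to retinal and then to retinoic acid, and retinoic acid enters the nucleus on CRABP proteins to act on RAR and RXR receptors that sit together on DNA. Short-chain dehydrogenases such as the DHRS3 and RDH8 proteins interconvert retinol and retinal, and CYP26 enzymes break retinoic acid down. In vertebrate embryos the pathway is known for patterning the hindbrain, the pharyngeal arches and the neural crest, the migratory population that gives rise to pigment cells and to skeletal and connective tissue of the head.

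The cells carried mitfa:GFP and crestin:mCherry reporters, which mark pigment progenitors and neural crest, and were sorted from AB wild-type embryos at 24 hours post fertilisation. The embryos had been left untreated or given ErbBi, a label taken to mean ErbB receptor inhibition. Both libraries came from the same kind of sort and the same 3' chemistry, and there was 1 library per treatment. Library and treatment cannot be told apart, no test between them was possible, and all intervals below are 95% intervals that cover counting error only.

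The untreated library held 999 cells with 7242348 unique molecular identifiers (UMIs, counted transcript molecules), and the ErbBi library held 348 cells with 1113172 UMIs. Median depth was 7099 UMIs per untreated cell and 2732.5 UMIs per ErbBi cell. Levels are CPM, a gene's UMIs out of each 1000000 UMIs of a library or class. Clustering both libraries together gave 9 clusters, of which 3 could be named from markers: mesenchyme-like (84 untreated and 129 ErbBi cells, led by twist1a and DLX2), xanthoblast-like (142 and 21 cells, with gch2 and slc22a7a) and melanoblast-like (147 and 2 cells, with DCT, pmela and both TYRP1 genes). Cluster 1 (215 and 8 cells) was led by TBX2, cluster 3 (143 and 51) by ALX4, PRDM12 and FOXD3, cluster 6 (89 and 38) by the EGFP reporter transcript and HOXD9, cluster 7 (106 and 5) by HBE1, TFAP2B and BNC2, cluster 8 (65 and 37) by MDK, SOX3 and NOVA1, and cluster 9 (8 and 57) by krt4 and apoeb. The 9 melanoblast markers summed to 52093 CPM in untreated melanoblast-like cells, 27722 CPM in untreated cluster 1 and 12678 CPM in untreated cluster 7. In ErbBi cluster 9 they summed to 30380 CPM. Cells rich in melanin transcripts were thus not confined to the class of that name, and 64 ErbBi cells had over 1% of UMIs in melanin genes. The mesenchyme-like class took 8.41% of untreated and 37.1% of ErbBi cells. Of the barcodes, 6 occurred in both filtered libraries and 75 in both unfiltered ones. Leaving out every kept cell whose barcode occurred in both unfiltered libraries, an alternative added after the data were seen, kept the direction of all 5 library ratios over all cells and left rbp4l in xanthoblast-like cells at 586 CPM untreated and 139 CPM with ErbBi.

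Over all cells, 2 members were higher and 1 was lower in the ErbBi library by a rule of size. The rule asked for at least a 2-fold ratio with its interval beyond 1.5-fold, in genes that reached 30 UMIs and 50 CPM on one side. RXRA and CRABP2 were the higher ones, rbp4l was the lower one, RDH8 met the minimum without passing, and DHRS3 did not reach 50 CPM in either library. Among all 2771 genes that met the minimum, 6.03% were higher and 2.74% lower. A minimum of 10 UMIs and 20 CPM let in 5196 genes, of which 8.2% were higher and 2.02% lower, and DHRS3 still fell short of 2-fold there. The members' counts are set beside these shares and nothing is read from them, since library levels were among the values that chose the members. Scaling by the median ratio of genes in place of library totals shifts every log2 ratio by -0.14.

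**Figure D1:**
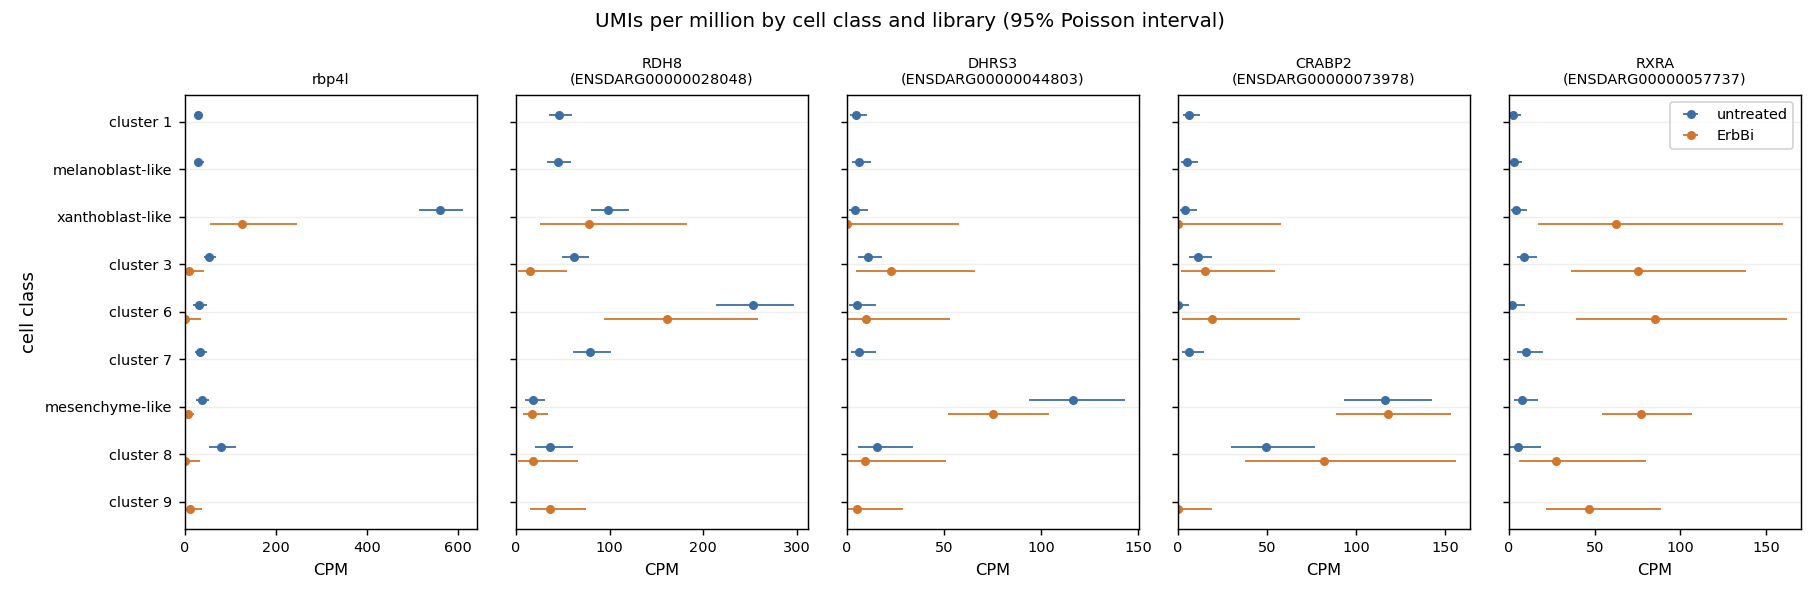
CPM (horizontal axis, starting at 0 and scaled separately for each gene) of the 5 members in each cell class with at least 20 cells, for the untreated (blue) and ErbBi (orange) library; bars are 95% Poisson intervals. rbp4l stands out in the untreated xanthoblast-like class at 560 CPM, RDH8 in cluster 6 at 253 CPM, DHRS3 and CRABP2 in the mesenchyme-like class at 116 CPM each, and the RXRA points of the ErbBi library lie right of the untreated ones in each class that has both.

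rbp4l encodes a member of the retinol-binding protein 4 group, small lipocalins that carry retinol outside cells. It was by far most abundant in xanthoblast-like cells, the precursors of yellow pigment cells. Its point value was lower in the ErbBi library in each class of at least 20 cells per library. Over all untreated cells 783 UMIs gave 108 CPM (101 to 116), and over all ErbBi cells 14 UMIs gave 12.6 CPM (6.88 to 21.1). The ErbBi level was 8.60-fold lower (5.09 to 15.8), which placed it as number 10 of 2771 genes from the lowest ratio. Library levels were among the values that chose the gene, so nothing is read from that rank.

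Untreated xanthoblast-like cells carried 542 rbp4l UMIs, or 560 CPM (514 to 610), and these made up 69.2% of the gene's UMIs in that library. The level was 14.6-fold that of the other untreated cells (12.5 to 17.1), a comparison in which 4.36% of genes were higher by the rule of size and which the choice of the member already used. The other untreated classes of at least 30 cells lay between 28.4 CPM in cluster 1 and 77.9 CPM (52.6 to 111) in cluster 8. After every cell was thinned to 1900 UMIs, 35.3% of untreated xanthoblast-like cells had an rbp4l UMI (48 of 136; 27.3 to 43.9), against 45.8% before thinning. In the other untreated classes of at least 30 cells the thinned share lay between 1.18% in cluster 6 and 11.1% in cluster 8.

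Within the xanthoblast-like class the transcript was spread very unevenly. Of its 142 untreated cells, 77 had no rbp4l UMI, 19 had 1 or 2, 30 had 3 to 9 and 16 had 10 or more. Those 16 cells held 366 of the 542 UMIs (67.5%), and the cell with most held 92. Without that cell the class level was 465 CPM.

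Other genes were read in the same groups of cells. gch2, the enzyme that starts pteridine synthesis, stood at 43908 CPM in the 16 cells with 10 or more rbp4l UMIs and at 44819 CPM in the 77 cells without any. BCO1, which cleaves carotenoids to retinal, stood at 124 CPM in the former and 106 CPM in the latter. aox5 stood at 1147 and 842 CPM and plin6, a lipid droplet coat protein, at 371 and 195 CPM. The mesenchyme marker twist1a stood at 130 CPM in the cells with 10 or more rbp4l UMIs and at 29.1 CPM in those without any, and SCARB1 at 34.3 and 18.7 CPM. Median depth was 8073.5 and 4997 UMIs per cell, and the part of depth or of other cells' RNA in these values was not tested. None of these levels rose steadily with rbp4l. SCARB1 was highest, at 57.4 CPM, and plin6 lowest, at 90.2 CPM, in the 19 untreated cells with 1 or 2 rbp4l UMIs. pts stood at 1099 CPM in the cells with 10 or more and at 1200 CPM in those without any. In ErbBi cells of the class twist1a had the opposite order, at 314 CPM without rbp4l and 187 CPM with 1 or 2 UMIs. The grouping was made by the gene described, so no test was attached to it.

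In the ErbBi library the xanthoblast-like class had 21 cells, of which 5 carried 8 rbp4l UMIs in all (125 CPM, 54.0 to 247). The level was 4.48-fold lower than in untreated cells of the class (2.26 to 10.4), an interval that leaves out the uneven spread over cells. The highest ErbBi cell had 3 UMIs and 55 cells of the whole untreated library had 3 or more, without correction for depth. Median depth in the class was 6615.5 UMIs per untreated and 2272 UMIs per ErbBi cell. After thinning, 12.5% of ErbBi cells of the class had an rbp4l UMI (2 of 16; 1.55 to 38.3). The untreated share was 35.3% (48 of 136; 27.3 to 43.9), so these intervals overlapped. gch2 in the same class was 43270 CPM untreated and 38679 CPM with ErbBi, which gave 13.0 rbp4l UMIs per 1000 gch2 UMIs in the untreated and 3.23 in the ErbBi class. As gch2 is a leading gene of the class, these values are not independent of the class and are given as a description.

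Low counts of rbp4l were also present outside xanthoblast-like cells, in a library where gch2 stood at 1562 to 4525 CPM in every other class of at least 30 cells. In cluster 1 the 36 rbp4l UMIs came from 36 different cells, and the part of free RNA in these levels was not tested. In the mesenchyme-like class rbp4l stood at 36.2 CPM untreated (28 UMIs) and 6.42 CPM with ErbBi (3 UMIs), a ratio of 0.178 (0.0345 to 0.575). Cluster 3 had 53.0 and 7.53 CPM (65 UMIs against 1), and the ratio of 0.142 (0.00354 to 0.820) rested on that 1 ErbBi molecule. Of the 65 untreated UMIs of cluster 3, 17 were in 1 cell. Cluster 8 had 30 UMIs untreated (77.9 CPM, 52.6 to 111) and 0 with ErbBi (interval up to 33.7 CPM). The 30 came from 12 cells, with 8 in 1 cell, and the intervals leave out this uneven spread. Cluster 6 had 18 UMIs untreated (30.5 CPM, 18.1 to 48.2) and 0 with ErbBi (interval up to 35.0 CPM), so these intervals overlapped. With the ErbBi class set to a floor of 3 counts, the levels were 2.84-fold lower in cluster 8 and 1.07-fold lower in cluster 6.

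Binning cells by gch2 share, without clusters, gave the same order. As gch2 is a leading gene of the xanthoblast-like class, these bins are not independent of that class. Untreated rbp4l went from 31.9 CPM in cells with under 0.5% of their UMIs in gch2 to 70.8 CPM at 0.5 to 1%, 168 CPM at 1 to 2%, 635 CPM at 2 to 4% and 689 CPM (614 to 771) above 4%. The ErbBi values were 6.04 CPM in the lowest bin and 212 CPM (77.6 to 460; 6 UMIs in 10 cells) in the highest, with 0 UMIs in the bins of 0.5 to 1% and 1 to 2%. Yolk syncytial layer and liver markers come from tissues that also make retinol carriers. Only 3 of the 8 listed genes, TTR, apoa2 and tfa, were in the filtered table. These 3 were all detected in the untreated library (27 UMIs, 3.73 CPM summed) and all at 0 in the ErbBi library. Their summed level in untreated xanthoblast-like cells was 0.0 CPM, and 41.6 CPM in cluster 8 was the highest class value. With so few UMIs a 0 in a class or library shows little. The part of such tissues in the rbp4l levels was not tested.

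**Figure D2:**
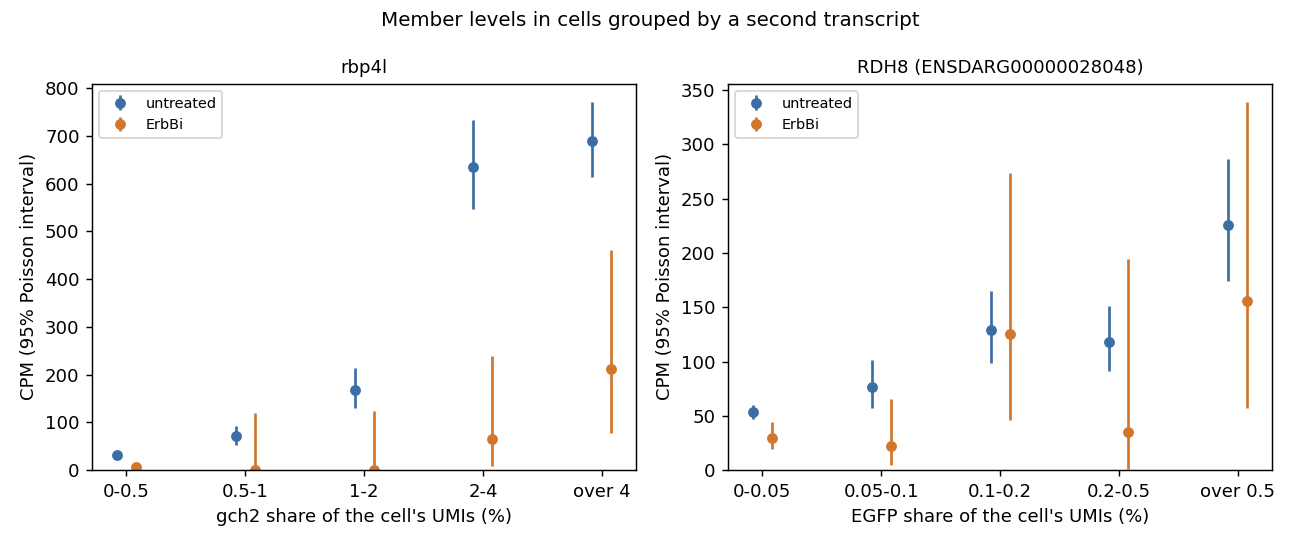
Level of rbp4l in cells grouped by the share of their UMIs from gch2 (left) and of RDH8 in cells grouped by the share from the EGFP reporter (right), as CPM with 95% Poisson intervals, untreated in blue and ErbBi in orange. Untreated rbp4l climbs from 31.9 to 689 CPM across the gch2 bins with the ErbBi points below it, and untreated RDH8 goes from 53.3 CPM in the lowest to 226 CPM in the highest EGFP bin.

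RDH8 (ENSDARG00000028048) belongs to the retinol dehydrogenases, a family best known for reducing retinal in photoreceptors. Here it was detected in every untreated class and was highest in cluster 6, the cells with most GFP reporter transcript. Over all cells it had 523 UMIs in 322 untreated cells (72.2 CPM, 66.2 to 78.7) and 42 UMIs in 35 ErbBi cells (37.7 CPM, 27.2 to 51.0). The ratio of 0.522 (0.372 to 0.716) fell short of the 2-fold size asked for, and median-ratio scaling or leaving out the top cell of each library took it past.

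In untreated cluster 6 RDH8 reached 253 CPM (214 to 297), from 149 UMIs in 57 of 89 cells. Xanthoblast-like cells followed at 98.2 CPM (79.5 to 120) and cluster 7 at 79.0 CPM (60.7 to 101), and the intervals of these overlapped. Cluster 3 had 62.0 CPM, cluster 1 had 45.8, melanoblast-like cells 44.5, cluster 8 had 36.4 and mesenchyme-like cells 18.1 CPM (9.89 to 30.3). Neighbours in that lower run overlapped in their intervals, while cluster 6 stood clear of all other untreated classes. It was 4.49-fold the other untreated cells (3.69 to 5.45), where 2.19% of genes were higher by the rule. The choice of the member already used class levels, so nothing is read from that. After thinning, 35.3% of untreated cluster 6 cells (30 of 85) and 7.59% of mesenchyme-like cells (6 of 79) had an RDH8 UMI.

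RDH8 itself was the 8th leading gene of cluster 6, and its closest profile over 13 library-by-class profiles was that of EGFP (Pearson r = 0.938 on log2(CPM + 10)). Clusters were built from the same genes, and EGFP was also read cell by cell. EGFP leads cluster 6, at 5311 CPM untreated, so these bins are not independent of that cluster. Untreated RDH8 stood at 53.3 CPM in cells with under 0.05% of UMIs in EGFP, 77.1 CPM at 0.05 to 0.1%, 129 CPM at 0.1 to 0.2%, 118 CPM at 0.2 to 0.5% and 226 CPM (174 to 287) above 0.5%. In the ErbBi library the ends of that series were 30.1 CPM (19.7 to 44.1) and 156 CPM (57.2 to 339), with 34.99 CPM from 1 UMI at 0.2 to 0.5%. CYTH1, PHLDA2, zgc:92242 and MYC had the next closest profiles (r = 0.908 to 0.878).

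With ErbBi RDH8 also had its highest point value in cluster 6, at 161 CPM (93.9 to 258; 17 UMIs), against 24.8 CPM in the other cells. This comparison did not reach the minimum of the size rule. Of the 17 UMIs, 5 were in 1 cell, and the level without that cell was 114 CPM. ErbBi xanthoblast-like cells stood at 78.2 CPM (25.4 to 182.5; 5 UMIs), an interval that overlapped that of cluster 6. Between libraries the ratio within cluster 6 was 0.638 (0.362 to 1.06), with an interval that included 1. It was 0.947 (0.344 to 2.42) in mesenchyme-like cells, 0.502 (0.0554 to 2.19) in cluster 8 and 0.243 (0.0289 to 0.908; 76 UMIs against 2) in cluster 3. Retina and lens markers, 6 of 6 genes detected untreated and 5 of 6 with ErbBi, summed to 23.7 CPM in untreated cluster 6 and to 483 CPM in untreated cluster 8, where RDH8 was low.

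DHRS3 (ENSDARG00000044803), a reductase that returns retinal to retinol and in zebrafish and mouse is itself induced by retinoic acid, marked mesenchyme-like cells. It ranked 7th and CRABP2 (ENSDARG00000073978) 8th among the leading genes of that class. Over all cells the 134 untreated DHRS3 UMIs made 18.5 CPM (15.5 to 21.9) and the 41 ErbBi UMIs made 36.8 CPM (26.4 to 49.97). The ratio between libraries was 1.99 (1.37 to 2.84).

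The whole-library value and the value within the class pointed opposite ways. Mesenchyme-like cells carried 90 of the 134 untreated DHRS3 UMIs (67.2%) and 35 of the 41 ErbBi UMIs (85.4%), while the class supplied 10.7% of untreated and 42.0% of ErbBi UMIs. Within the class DHRS3 stood at 116 CPM untreated (93.5 to 143) and 74.9 CPM with ErbBi (52.2 to 104), a ratio of 0.644 (0.423 to 0.962). The CPM intervals overlapped. Giving the 4 clusters with at least 30 cells per library equal weight turned the log2 ratio over all cells from 0.99 to -0.35. The part of the mesenchyme-like share in the library difference was not tested, and share and treatment cannot be told apart with 1 library each.

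Elsewhere DHRS3 was lower. The other untreated classes of at least 30 cells ranged from 4.14 CPM in xanthoblast-like cells to 15.6 CPM (5.72 to 33.9) in cluster 8, and ErbBi cluster 3 had 22.6 CPM from 3 UMIs. The untreated mesenchyme-like level was 17.1-fold that of all other untreated cells (11.8 to 25.1). With ErbBi it was 8.07-fold that of the other cells (3.36 to 23.5). By the rule of size 13.6% of genes were higher in mesenchyme-like than in other untreated cells and 5.5% than in other ErbBi cells. DHRS3 and CRABP2 are among them in both libraries, and nothing is read from that because class levels chose them. After thinning, 16.5% of untreated mesenchyme-like cells (13 of 79) had a DHRS3 UMI and 0.735% of xanthoblast-like cells (1 of 136). With ErbBi the thinned share of mesenchyme-like cells was 12.3% (14 of 114; 6.88 to 19.7), an interval that overlapped the untreated one (9.06 to 26.5).

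**Figure D3:**
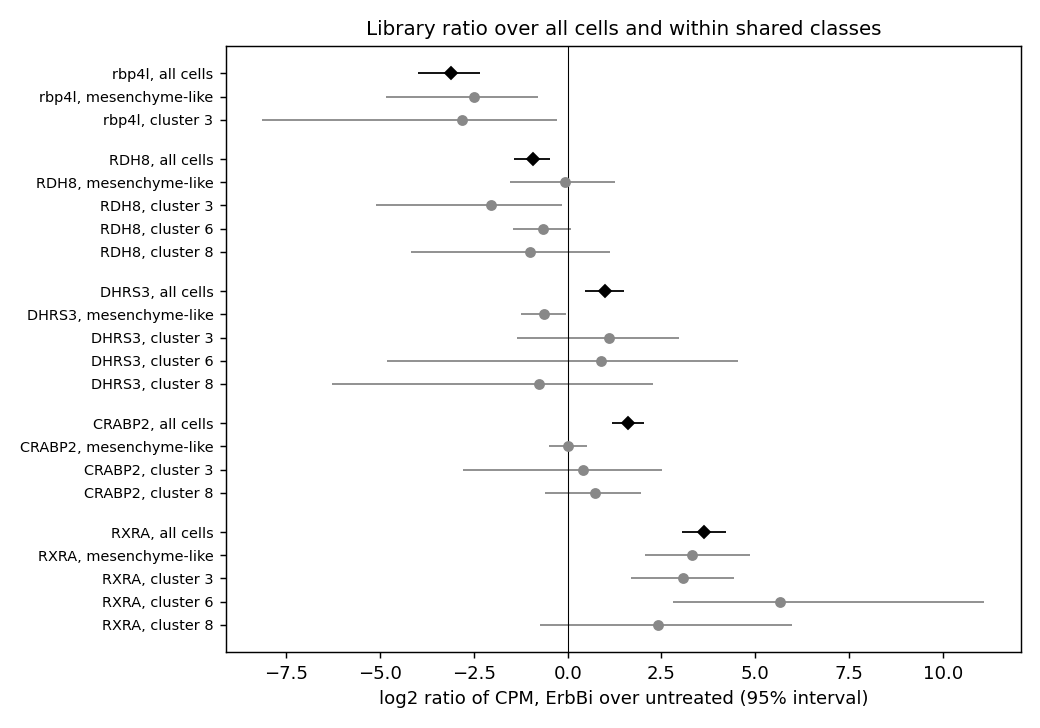
Log2 ratio of CPM, ErbBi over untreated, with 95% intervals, for each member over all cells (black diamonds) and within each class of at least 30 cells per library (grey circles); classes where a library had 0 UMIs are left out. DHRS3 and CRABP2 lie right of 0 over all cells (0.99 and 1.62) and at -0.63 and 0.02 within mesenchyme-like cells, whereas RXRA lies right of 0 and rbp4l left of 0 in each class drawn.

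CRABP2 (ENSDARG00000073978), whose protein carries retinoic acid to its receptors, followed DHRS3 in mesenchyme-like cells and was found in cluster 8 as well. Its 146 untreated UMIs made 20.2 CPM over all cells (17.0 to 23.7) and its 69 ErbBi UMIs made 62.0 CPM (48.2 to 78.4). The ratio between libraries was 3.07 (2.27 to 4.12). Within mesenchyme-like cells the levels were 116 CPM (93.5 to 143; 90 UMIs) and 118 CPM (88.7 to 153; 55 UMIs), a ratio of 1.01 (0.710 to 1.43). Equal cluster weights brought the log2 ratio over all cells from 1.62 to 0.40. The within-class interval included 1 for CRABP2 and not for DHRS3 (0.423 to 0.962). These intervals overlapped, and a difference between the genes was not tested. Outside the class CRABP2 stood at 8.66 CPM untreated and 21.7 CPM with ErbBi.

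In cluster 8, whose leading genes include SOX3 and NOVA1 of the neural tube list, CRABP2 stood at 49.4 CPM untreated (29.7 to 77.1; 19 UMIs) and 82.2 CPM with ErbBi (37.6 to 156; 9 UMIs). The ratio there was 1.67 (0.664 to 3.86). Other untreated classes lay between 0 of 89 cells in cluster 6, with an interval up to 6.25 CPM, and 11.4 CPM in cluster 3. Retina and lens markers summed to 483 CPM in untreated and 45.7 CPM in ErbBi cluster 8, and muscle markers to 1353 and 210 CPM, and their part in these levels was not tested. DHRS3 and CRABP2 had 90 UMIs each in untreated mesenchyme-like cells, and 6 and 19 in untreated cluster 8.

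The pair overlapped only in part at the level of single cells. Of 84 untreated mesenchyme-like cells, 37 had a DHRS3 UMI, 37 had a CRABP2 UMI and 20 had both, which is 54.1% of each set, and 36.2% of the cells without DHRS3 had CRABP2. Of 129 ErbBi cells of the class, 30 had DHRS3, 41 had CRABP2 and 9 had both, against 32.3% with CRABP2 among those without DHRS3. At 1900 UMIs per cell the cells with both numbered 3 of 79 and 2 of 114, and depth and co-detection cannot be told apart.

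A split of the class by DLX2, chosen after the data were seen, gave the genes opposite orders in both libraries. CRABP2 stood at 130 CPM (103 to 163) in the 63 untreated cells with a DLX2 UMI and at 68.5 CPM (35.4 to 120) in the 21 without, and at 129 and 74.2 CPM in the ErbBi cells. DHRS3 stood at 110 CPM (85.2 to 140) and 137 CPM (87.8 to 204) untreated, and at 64.4 and 117 CPM with ErbBi. All 4 pairs of intervals overlapped. Cells with a DLX2 UMI were also deeper, with medians of 9660 against 9045 UMIs untreated and 3656 against 2296 UMIs with ErbBi. The genes with the closest profiles over the 13 profiles differed too, with BARX1 first for DHRS3 (r = 0.913) and meis1a and meis2b for CRABP2 (r = 0.940 and 0.936), and IGFBP5 among the 5 closest for both.

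Mesenchyme transcripts were more common throughout the ErbBi library. The 9 mesenchyme markers, all detected in both libraries, summed to 313 CPM in ErbBi cluster 6 and 776 CPM in ErbBi cluster 8, the ends of the range outside the mesenchyme-like class, against 63.2 to 239 CPM in untreated classes. DHRS3 outside that class stood at 6.80 CPM untreated and 9.29 CPM with ErbBi. The part of free RNA in the DHRS3 and CRABP2 levels outside the class was not tested.

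RXRA (ENSDARG00000057737), the retinoid X receptor that pairs with RAR and with several other nuclear receptors, stood out in no class, and its level was higher in the ErbBi library in each of the 4 shared classes. It had 40 UMIs in 39 of 999 untreated cells (5.52 CPM, 3.95 to 7.52) and 76 UMIs in 67 of 348 ErbBi cells (68.3 CPM, 53.8 to 85.5). The ratio of 12.4 (8.32 to 18.6) was number 5 from the highest of 2771 genes. Nothing is read from that rank, since library levels were among the values that chose the gene. At a fixed 1900 UMIs per cell, 12 of 946 untreated and 41 of 280 ErbBi cells had an RXRA UMI, so the difference was also present at equal depth per cell.

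In untreated classes of at least 30 cells levels ran from 1.70 CPM in cluster 6 to 10.0 CPM (4.33 to 19.8) in cluster 7. All of these class intervals overlapped. The 8 untreated cluster 9 cells had 2 UMIs (29.1 CPM, 3.53 to 105), and the ratio there was 1.61 (0.333 to 15.3). ErbBi levels were 27.4 CPM in cluster 8 (5.65 to 80.1; 3 UMIs), 46.9 CPM in cluster 9, 62.6 CPM in the 21 xanthoblast-like cells, 75.3 CPM in cluster 3, 77.1 CPM (54.0 to 107) in mesenchyme-like cells and 85.3 CPM (39.0 to 162) in cluster 6. These also overlapped. The mesenchyme-like class was 1.24-fold the other ErbBi cells (0.771 to 2.003), and held 47.4% of the ErbBi RXRA UMIs beside 42.0% of all ErbBi UMIs.

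Within classes the ratio was 9.94 (4.15 to 28.9) in mesenchyme-like cells and 8.39 (3.20 to 21.8) in cluster 3. By the rule of size 1.51% of genes were higher and 0.245% lower within mesenchyme-like cells. RXRA was among the higher ones, and nothing is read from that because class and library levels chose it. In cluster 6 the ratio was 50.3 (6.98 to 2207) from 1 untreated and 9 ErbBi UMIs. In cluster 8 it was 5.27 (0.604 to 63.1) from 2 and 3 UMIs. Cells sorted by UMI shares in place of clusters gave 13.0 (5.63 to 29.8) where melanin genes exceeded 1% of UMIs, 12.6 (2.34 to 67.6) where gch2 exceeded 2%, and 11.3 (6.85 to 19.4) in the rest. Of the 167 genes higher in the ErbBi library over all cells, 19 (11.4%) were past 2-fold in each of the 4 shared clusters with more than 3 ErbBi UMIs; RXRA was not counted there because cluster 8 had only 3.

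The genes with profiles closest to RXRA also had its library difference, which follows from how they were picked. rps11l, a ribosomal protein gene copy, came first (r = 0.969) with 176 CPM untreated and 686 CPM with ErbBi. ZFP36L1 (r = 0.950), an RNA-binding decay factor, had 27.3 and 247 CPM, and FBN3 (r = 0.946), a fibrillin, had 10.6 and 87.1 CPM. MAT2A and CAPZB completed the 5 (r = 0.949 and 0.946). These correlations are over 13 profiles that share 2 libraries, and depth and library move together in them.

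The wider pathway was read from a list of 63 symbols grouped by role, of which 53 genes were in the filtered table and 41 had at least 10 UMIs. Of these 41, 6 met the minimum of the size rule, with 3 higher and 1 lower in the ErbBi library. Among all 2771 genes that met the minimum, 6.03% were higher and 2.74% lower. The members RXRA, CRABP2 and rbp4l made up all but 1 of the pathway genes past the rule, and library levels were among the values that chose them. The other was rbp5, a cellular retinol-binding protein. It stood at 40.2 CPM untreated (35.7 to 45.1) and 87.1 CPM with ErbBi (70.7 to 106), a ratio of 2.17 (1.71 to 2.74). Within mesenchyme-like cells rbp5 stood at 173 CPM untreated (145 to 205) and 143 CPM with ErbBi (111 to 182). Median-ratio scaling took rbp5 below the 2-fold size and left 2 pathway genes higher. The median log2 ratio of the 41 genes was 0.41, beside 0.32 over the 12248 genes with at least 10 UMIs.

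Of the list's retinoic acid receptors and breakdown enzymes, some were highest in mesenchyme-like cells as DHRS3 and CRABP2 were. In untreated mesenchyme-like cells raraa stood at 118 CPM (94.7 to 144), RARG (ENSDARG00000034117) at 72.3 CPM, CYP26A1 at 58.1 CPM (42.4 to 77.8) and rbp5 at 173 CPM (145 to 205). The level of each was higher there than in any other untreated class of at least 30 cells. Others were not: rarab was highest in cluster 3 (17.9 CPM, against 12.9 in mesenchyme-like cells), and CYP26B1 and CYP26C1 in cluster 8 (26.0 and 18.2 CPM, against 2.58 and 1.29). With ErbBi raraa, RARG, CYP26A1 and rbp5 stood at 77.1, 72.8, 38.5 and 143 CPM in mesenchyme-like cells, with intervals that overlapped the untreated ones.

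The second rows of 4 members were read beside them. That of CRABP2 (ENSDARG00000030449) was highest in other classes than the member: it stood at 377 CPM (344 to 412) in untreated cluster 1, 375 CPM (341 to 412) in melanoblast-like cells, 307 CPM (234 to 396) in ErbBi cluster 9 and 45.2 CPM (31.5 to 62.9) in untreated mesenchyme-like cells. Over all cells it had 200 CPM untreated and 129 CPM with ErbBi (ratio 0.647, 0.541 to 0.768). The second DHRS3 row (ENSDARG00000044982) had 59 and 11 UMIs and its highest untreated level in cluster 7 at 12.5 CPM. With ErbBi it stood at 14.98 CPM (6.02 to 30.9; 7 of its 11 UMIs) in mesenchyme-like cells and 15.6 CPM in cluster 9. The second RDH8 row (ENSDARG00000105060) and the second RXRA row (ENSDARG00000035127) had 2 UMIs each in the untreated library and 0 with ErbBi, too few to show a pattern. How reads shared between near-identical copies were counted is not given, and their part in these levels was not tested.

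Of the list's carotenoid genes with at least 10 UMIs, BCO1 and SCARB1 were highest in untreated xanthoblast-like cells, as rbp4l was. BCO1 stood at 106 CPM (86.9 to 129) in untreated and 125 CPM (54.0 to 247; 8 UMIs) in ErbBi xanthoblast-like cells, and at 15.3 CPM in the next untreated class. SCARB1, a receptor for carotenoid-bearing lipoproteins, stood at 29.98 CPM (20.1 to 43.1) in untreated cells of the class and came from 1 UMI in its ErbBi cells. rbp4l, at 560 and 125 CPM, was 4.48-fold lower with ErbBi in the same 21 cells in which BCO1 had a point value above the untreated one. The difference between these ratios was not tested.

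Retinoic acid synthesis was barely detected. ALDH1A2, the main embryonic enzyme for it, had 13 UMIs untreated and 1 with ErbBi, and its highest untreated class was cluster 8 at 15.6 CPM. RDH10 (ENSDARG00000058730), which oxidises retinol to retinal, stood at 53.1 CPM (40.7 to 68.1) in melanoblast-like cells and 47.4 CPM in cluster 1, the same classes in which the second CRABP2 row was high, and at 2.58 CPM in untreated mesenchyme-like cells. The other RDH10 row (ENSDARG00000012369) had the opposite order, at 6.85 CPM in melanoblast-like cells and 22.0 CPM (12.8 to 35.2) in untreated mesenchyme-like cells, where it stood at 27.8 CPM with ErbBi.

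**Figure D4:**
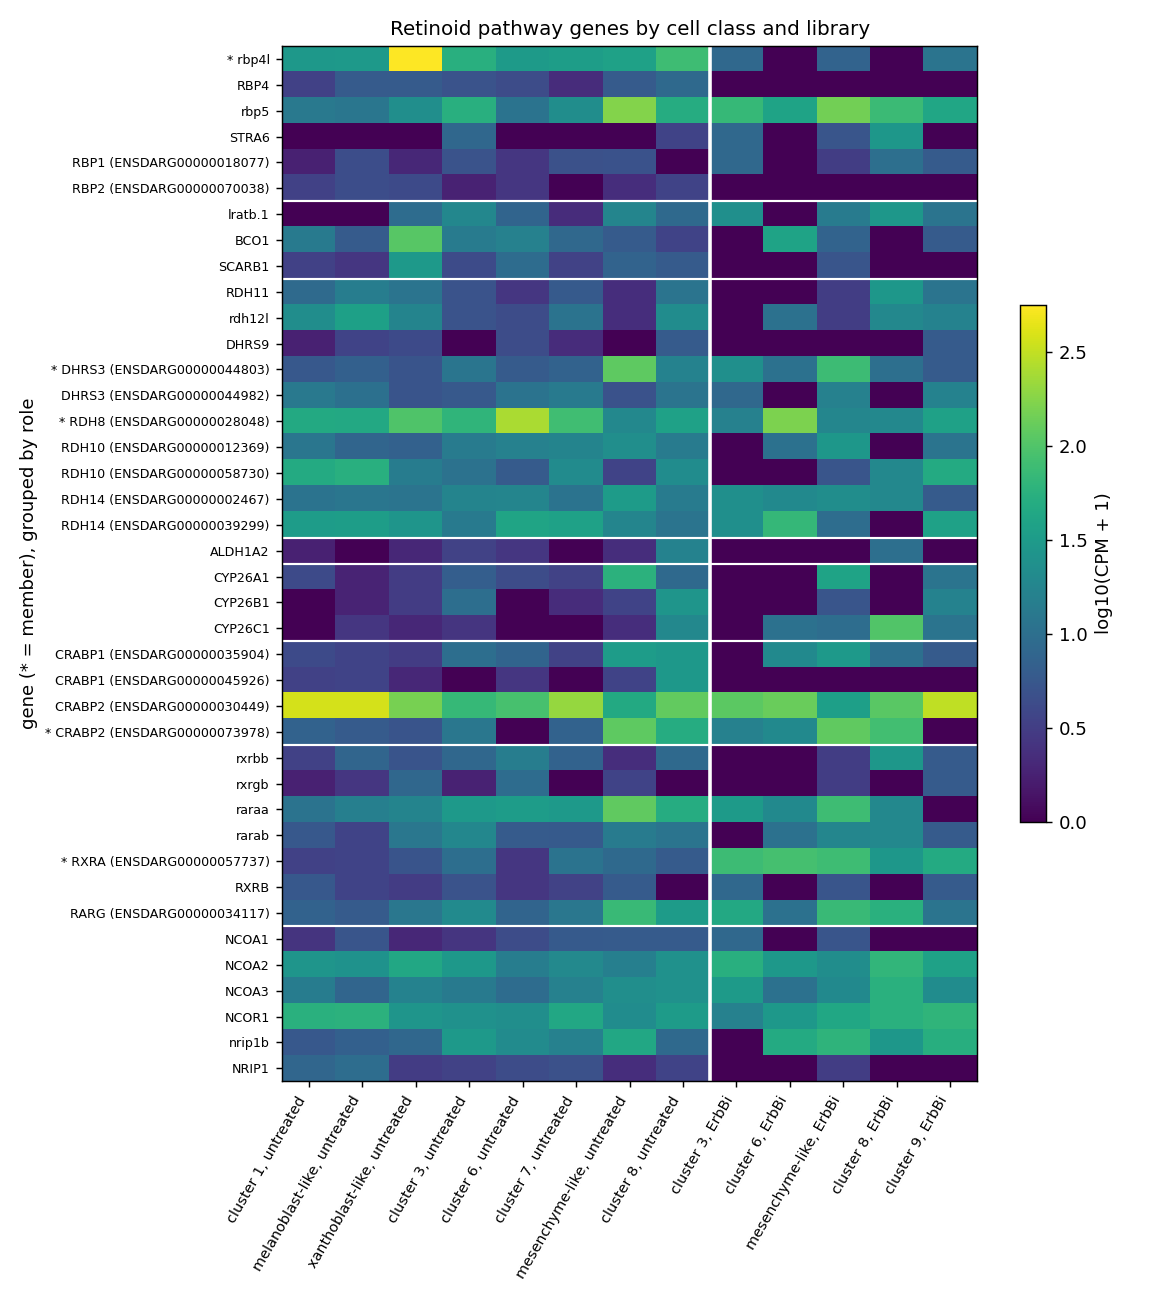
Levels, as log10(CPM + 1), of all but 1 of the 41 retinoid pathway genes with at least 10 UMIs (rows, grouped by role between white lines; an asterisk marks the 5 members) in each class of at least 30 cells, untreated left and ErbBi right of the white vertical line. The mesenchyme-like columns are bright for rbp5, DHRS3, CYP26A1, CRABP2 and raraa, the second CRABP2 row is bright in cluster 1 and melanoblast-like cells at 377 and 375 CPM, and RXRA is bright across the ErbBi columns.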

How the data were processed

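The authors deposited raw UMI counts for each gene in each cell, as a filtered and an unfiltered table. The submitters' processing notes name Cell Ranger 2.1.1, FastQC 0.11.7 and the build GRCz11, with no role or order; strand handling in counting is not given in the sources used here. The filtered table held 1347 of 1519 cells and 18723 of 25436 genes of the unfiltered one, with 0 values that differed, and left out 23 of 1022 untreated and 149 of 497 ErbBi cells. Cell names end in 1 or 2, as the sample titles do, and were mapped by that number; every library direction would turn round were the numbers assigned otherwise.

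UMIs were summed per library and class and divided by the class total (CPM). Intervals are 95%: exact Poisson for CPM, Clopper-Pearson for shares, exact conditional binomial for ratios. A class at 0 was set to 3 counts. Cells were scaled to 10000 UMIs, log-transformed, and clustered on 2000 variable genes scaled to unit variance, 20 principal components, 15 neighbours and Leiden resolution 1 (scanpy 1.11.5, leidenalg 0.10.2). Classes were named where at least 3 markers of a list were among the cluster's leading genes, at least 1 of them near the top. Cells were thinned to 1900 UMIs for shares, leaving out 53 untreated and 68 ErbBi cells. Scrublet called 7 untreated and 2 ErbBi doublets, which stayed in; an alternative left them out. No batch correction was made.

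Gene symbols came from a table of Ensembl IDs and RefSeq names; of the pathway symbols, rdh12 and rdh13 had no match. 1 pathway gene enters the counts and is not reported here by name. The named genes are the 5 members, pathway genes with at least 10 UMIs, and for each member the 5 genes with the closest profile by Pearson's r of log2(CPM + 10) over 13 profiles, among 4138 genes with at least 100 UMIs in all and 50 CPM in a profile. The members and lists were chosen with earlier results of these data known. The ratio and size-rule code was tested on simulated data. Alternatives covered scaling, weights, filter, doublets, clustering, thinning and single cells.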

Additional observations from a re-analysis of the deposited data

How the results depend on the processing

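Of 231 values recomputed under alternatives, 212 stayed within the main interval or count limit, 18 moved beyond it and 1 reversed; 26 combinations gave no value, mostly where centred genes or another resolution left no matching class of 30 cells or a count of 0. With equal cluster weights the DHRS3 log2 ratio over all cells went from 0.99 to -0.35 and that of CRABP2 from 1.62 to 0.40. A minimum of 10 UMIs and 20 CPM let in 17 pathway genes and raised those higher in the ErbBi library from 3 to 6. Over all genes 8.2% of 5196 were higher there. With the median-ratio size factor, pathway genes higher in the ErbBi library went from 3 to 2 and those lower from 1 to 2. Without the top cell of each gene and library, those lower also went from 1 to 2. Centring genes within each library changed the untreated mesenchyme-like levels to 0.0 CPM for RXRA, 62.7 CPM for DHRS3 and 52.3 CPM for CRABP2; the matched class then had 8 untreated cells. At Leiden resolution 0.5, which joined clusters 6 and 7, untreated RDH8 in cluster 6 was 146 CPM and its log2 ratio 0.14 in place of -0.65; without unit-variance scaling, added after the data were seen, it was 212 CPM. rbp4l in untreated xanthoblast-like cells, 560 CPM, was 482 CPM at resolution 0.5, 489 CPM with members and pathway list left out of clustering, 513 CPM without unit-variance scaling and 465 CPM without its top cell; the cause of the clustering differences was not tested. Thinning to 1000 UMIs lowers shares by construction: in ErbBi mesenchyme-like cells to 6.98% for RXRA and 8.53% for CRABP2, and for RDH8 in cluster 6 to 18.0% untreated and 13.2% with ErbBi. Without barcodes shared between libraries, an alternative added after the data were seen, the log2 ratios over all cells were 3.76 for RXRA, 1.05 for DHRS3, 1.58 for CRABP2, -1.07 for RDH8 and -2.90 for rbp4l. Among ratios whose interval includes 1, CRABP2 changed sign within cluster 3, from 0.40 to -0.36 without unit-variance scaling and -0.38 without the top cell, and within mesenchyme-like cells, from 0.02 to -0.07 without shared barcodes. No paired analysis was possible because there was only 1 library per treatment. A count of 3 corresponds to 0.414 CPM in the untreated and 2.70 CPM in the ErbBi library, so absence from small ErbBi classes is not shown.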

Other observations

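Some receptor and cofactor genes were measured in both libraries without reaching the main minimum. nrip1b, an interacting protein of nuclear receptors, had 16.2 CPM in the untreated and 44.0 CPM in the ErbBi library, a ratio of 2.72 (1.91 to 3.83). RARG (ENSDARG00000034117) had 18.2 and 45.8 CPM, a ratio of 2.51 (1.78 to 3.50). Among classes of at least 30 cells, both genes were highest in mesenchyme-like cells in each library. There nrip1b stood at 43.9 CPM untreated and 59.9 CPM with ErbBi, and RARG at 72.3 and 72.8 CPM. NCOA1, NCOA2 and NCOR1 had ratios of 1.18, 1.33 and 1.23 with intervals that included 1. NCOA3 had a ratio of 1.66 (1.02 to 2.60), and NRIP1, with 31 UMIs against 1, had 0.210 (0.00515 to 1.26).

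CYP26C1, which breaks down retinoic acid, stood at 18.2 CPM in untreated cluster 8 (7.31 to 37.5; 7 UMIs in 3 of 65 cells, 5 of them in 1 cell) and at 100.4 CPM in ErbBi cluster 8 (50.1 to 180; 11 UMIs in 5 of 37 cells). Retina and lens markers in this cluster summed to 483 and 45.7 CPM and muscle markers to 1353 and 210 CPM, and their part in the difference was not tested. CYP26A1 stood at 7.79 CPM in untreated cluster 8 and had 0 UMIs in ErbBi cluster 8. A count of 3 corresponds to 27.4 CPM in that ErbBi class, so the 0 shows no difference.

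RBP4, the second gene of the retinol carrier group, had 123 UMIs in the untreated library and 0 in the ErbBi cells that the authors kept. Of the 123, 94 came from 4 of the 8 untreated cluster 9 cells, 61 of them from 1 cell. The 149 ErbBi cells left out by the authors held 14 RBP4 UMIs (137 CPM, 75.0 to 230), 9 of them in 1 cell. The same cells held 7 rbp4l UMIs (68.6 CPM, 27.6 to 141) against 12.6 CPM in the kept ErbBi cells, and with all unfiltered cells the rbp4l log2 ratio was -2.64 in place of -3.10. Of the 149 cells, 57 (38.3%) carried a barcode that also occurred in the unfiltered untreated library, and those 57 held 1 of the 7 rbp4l UMIs.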
